A study of Mus musculus with 36 samples.

Results

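The 8 genes described here, Ifit1, Ifit3, Isg15, Irf7, Irf9, Oasl2, Bst2 and Usp18, were taken from a list of interferon-stimulated genes and found by symbol among the 52636 genes measured by RNA-sequencing in the right anterior cingulate cortex (aCC). Each symbol matched 1 gene, and 8 of 8 passed the filter on low values, which asked for 0.1 TPM or more in 8 or more libraries. TPM is a level relative to the library total and corrected for transcript length, so that levels of different genes can be set side by side. Tissue punches came from 36 female mice of the strain C57BL/6NTac-Brd1, 1 library per mouse, in 4 groups. WT vehicle (n = 8) and Brd1+/- vehicle (n = 9) mice had received saline, and WT IMN (n = 10) and Brd1+/- IMN (n = 9) mice had received the tricyclic antidepressant imipramine (IMN; 10 mg/kg). Brd1+/- mice carry 1 allele with a targeted deletion within Brd1, which encodes a scaffold of histone acetyltransferase complexes; all come from a single targeted line. By the study's methods, vehicle and IMN mice alike were injected under the skin on consecutive days and went through behavioral tests, including a forced swim shortly before the brains were taken, and they were young adults.

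Type I interferons bind the receptor formed by Ifnar1 and Ifnar2, whose kinases Jak1 and Tyk2 activate transcription factors such as Stat2. Together with Irf9, Stat2 is part of the factor ISGF3, which binds the interferon-stimulated response element in the promoters of many genes. The products of these genes block viral RNA and virus release, amplify the response, as Irf7 does, or end it, as Usp18 does at the receptor. In the brain they are also expressed at a low constant level without infection, in microglia, endothelium, astrocytes and neurons.

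The 4 groups are read as the study designed them, namely what the lost Brd1 allele does with and without IMN and what IMN does in each genotype. Between 24685 and 25517 genes were above 0 in a library. The targeted gene Brd1 averaged 26.4 TPM in WT vehicle mice (SD 3.03, n = 8) and 16.8 TPM in Brd1+/- vehicle mice (SD 2.72, n = 9). Over both treatments it was lower in Brd1+/- mice by a log2 fold change of -0.54 (limma adjusted p = 2.83e-05). Between genotypes within a treatment it ranked first of all genes and did not pass, at -0.64 with vehicle (limma adjusted p = 0.062) and -0.45 under IMN (0.882). Brd1+/- vehicle replicate 6 stood apart, with a mean log2 level of 6.78 over the striatal marker genes and at most 4.60 in any other library. For leading values of the 8 genes and their pairs, values without this library are given below. Marker lists were read only with it included.

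Of the 8 genes, 7 had a promoter in RefSeq (GRCm38.p6), and Usp18 had no entry. Searched in the 250 bases before the start were the letters GAAANNGAAA and, for the opposite strand, TTTCNNTTTC, the core of the interferon-stimulated response element, with overlapping matches counted. These occurred before Ifit1, Ifit3, Isg15 and Bst2, 2 times or more in each, whereas 2.98% of 32851 promoters held a match and 0.18% held 2 or more. The 4 promoters are shown because they hold the letters that ISGF3 is known to bind. They are written 5′ to 3′ along the gene, and capitals mark the matches.
Ifit1, chr19:34640639-34640888, plus strand: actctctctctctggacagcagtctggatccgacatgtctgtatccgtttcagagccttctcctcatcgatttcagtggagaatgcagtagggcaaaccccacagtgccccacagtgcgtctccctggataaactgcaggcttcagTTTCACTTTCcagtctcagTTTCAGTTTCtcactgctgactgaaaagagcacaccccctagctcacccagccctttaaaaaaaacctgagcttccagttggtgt
Ifit3, chr19:34583279-34583528, plus strand: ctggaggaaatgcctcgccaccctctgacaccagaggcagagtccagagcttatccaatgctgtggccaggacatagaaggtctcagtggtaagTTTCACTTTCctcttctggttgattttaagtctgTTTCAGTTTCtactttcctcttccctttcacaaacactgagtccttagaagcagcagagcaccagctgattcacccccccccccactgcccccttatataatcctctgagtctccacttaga
Isg15, chr4:156200819-156201068, minus strand: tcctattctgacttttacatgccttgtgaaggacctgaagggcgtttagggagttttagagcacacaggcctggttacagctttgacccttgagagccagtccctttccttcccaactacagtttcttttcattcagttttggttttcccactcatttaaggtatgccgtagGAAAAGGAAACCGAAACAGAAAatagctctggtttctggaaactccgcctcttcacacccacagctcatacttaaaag
Bst2, chr8:71537473-71537722, minus strand: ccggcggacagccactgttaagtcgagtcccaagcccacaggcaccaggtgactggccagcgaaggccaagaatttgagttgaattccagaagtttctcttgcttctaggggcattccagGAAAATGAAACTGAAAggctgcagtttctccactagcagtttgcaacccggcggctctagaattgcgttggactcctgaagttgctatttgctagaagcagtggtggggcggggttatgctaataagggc
In Ifit1 and Ifit3 the matches read TTTCACTTTC and TTTCAGTTTC in the same order, from 104 to 95 and from 85 to 76 bases before the start in Ifit1, and from 156 to 147 and from 122 to 113 in Ifit3. In Isg15 there were 3 overlapping matches between 78 and 57 bases before the start, and in Bst2 there were 2 overlapping matches between 130 and 115. The windows of Irf7, Oasl2 and both starts of Irf9 held none of these letters, which says nothing about what binds there. Among the comparison list of 36 other interferon-stimulated genes, 27 had an entry and 9 of these a match.

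**Figure D1:**
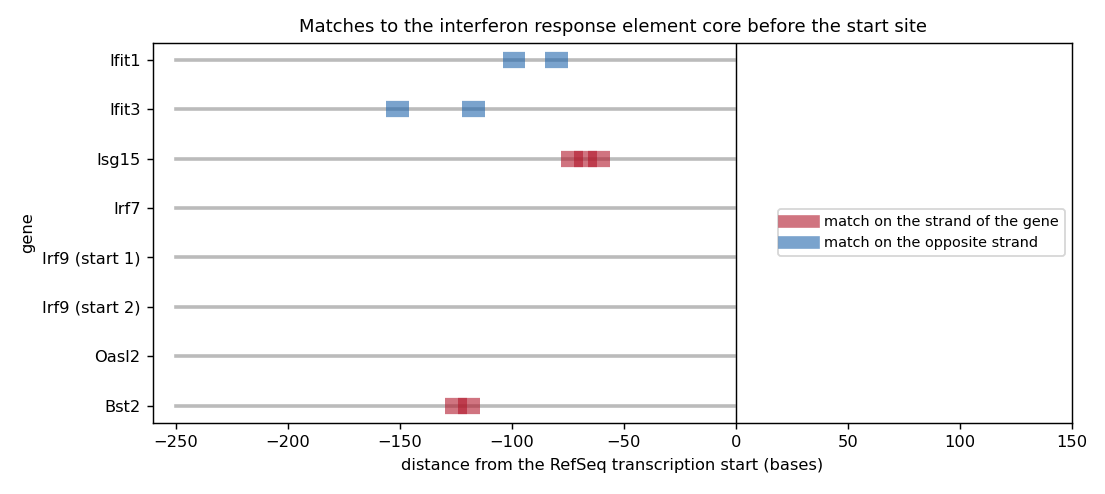
Position of each match (bars) within the 250 bases before the RefSeq start of 7 genes, in bases from the start; Irf9 has 2 annotated starts. Matches lie between 156 and 57 bases before the start in Ifit1, Ifit3, Isg15 and Bst2, and the other lines are empty.

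Upstream of the 8 genes, the interferon genes themselves were near absent. Of 12 ligand genes (5 of the alpha family, Ifnb1, Ifne, Ifnk, Ifnz, Ifng and the lambda genes Ifnl2 and Ifnl3), 8 were listed at 0 in every library, and the other 4 were above 0 in at most 6 of 36 libraries and never above 0.306 TPM. The receptors were present throughout. The median over libraries was 21.5 TPM for Ifnar1 and 17.7 TPM for Ifnar2, and 12.1 and 29.4 TPM for Ifngr1 and Ifngr2, the receptor of interferon gamma. The lambda receptor Ifnlr1 was above 0 in 16 libraries with a highest level of 0.268 TPM, while its partner Il10rb, which other cytokines use too, had a median of 7.40 TPM. Among 13 genes of signal transduction, all of them tested, the median ran from 70.5 TPM for Jak1 and 20.7 TPM for Stat2 to 7.97 TPM for Tyk2 and 1.61 TPM for Irf8.

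The 8 genes were expressed at low to moderate levels. Irf9, the DNA-binding part of ISGF3, was the highest, with a median of 12.2 TPM over the 36 libraries and a range from 7.37 to 20.4. Ifit3, an adaptor among the antiviral proteins that bind viral RNA, followed with 5.51 TPM (3.42 to 9.02). Irf9 exceeded Ifit3, and Ifit3 exceeded Bst2, in 36 of 36 libraries. Bst2 (tetherin, which holds budding virus at the cell surface), Isg15 (a ubiquitin-like modifier), Oasl2 (an oligoadenylate synthetase-like protein) and Irf7 (the factor that amplifies interferon production) had medians of 2.97, 2.89, 2.56 and 2.47 TPM and did not separate: Bst2 exceeded Isg15 in 16 libraries, Isg15 exceeded Oasl2 in 21 and Oasl2 exceeded Irf7 in 20. Ifit1, which binds viral RNA caps, had a median of 1.16 TPM and Usp18, the protease that removes Isg15 and also blocks the interferon receptor, 0.512 TPM. Usp18 was listed at 0 in 6 libraries, and the other 7 genes were above 0 in all 36.

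Features of the annotation limit single genes. Irf7 (chr7:141262706-141266481) overlaps Phrf1 and Usp18 (chr6:121245906-121270917) overlaps Gm44148, a noncoding gene on the other strand, and the strand setting of the counting is not given in the sources used here. Irf9 (chr14:55603571-55610030) overlaps Rnf31 on its own strand. Ifit3 (chr19:34583531-34588731) has a close copy, Ifit3b, so reads could be split between them.

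**Figure D2:**
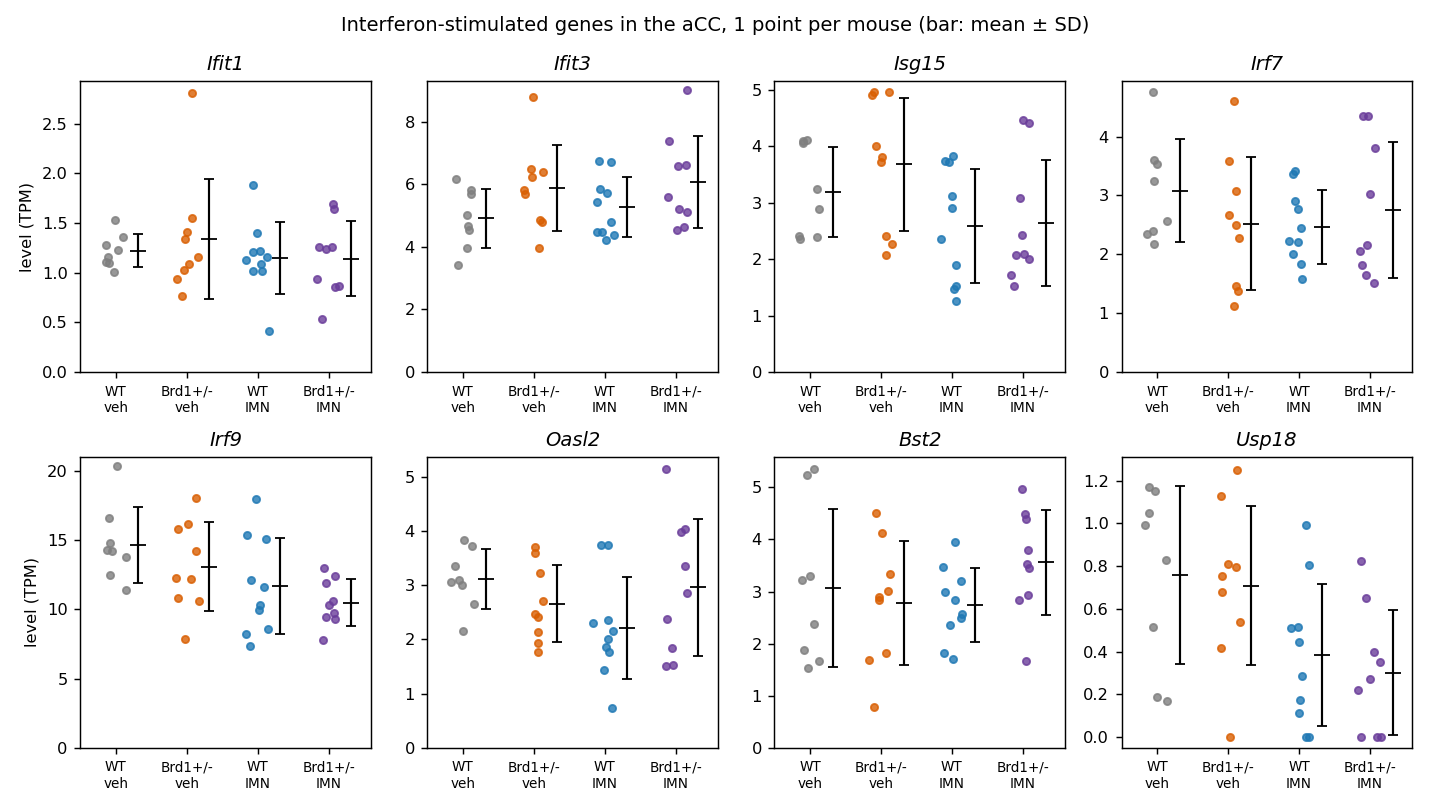
Level in TPM (y axis) of each gene in each of the 4 groups (x axis; veh, vehicle), 1 point per mouse, with the mean and SD of the group to the right of its points. The groups overlap in every panel. Usp18 and Irf9 sit lowest in the IMN groups, and Ifit1 of Brd1+/- vehicle replicate 7, at 2.81 TPM, lies above all other libraries.

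None of the 8 genes passed the test between genotypes. In vehicle mice 0 of 8 passed an adjusted p of 0.05 (limma; 0.0% of 25572 genes passed) and 0 of 8 had an unadjusted p under 0.05, a level reached by 1.22% of genes in the higher and 2.53% in the lower direction. Ifit3 was 3.42, 4.85 and 6.16 TPM (lowest, median and highest) in WT vehicle and 3.97, 5.81 and 8.80 TPM in Brd1+/- vehicle mice. It was thus higher in 7 of 9 Brd1+/- libraries than the WT mean, with overlapping groups, a log2 fold change of 0.23 (SE 0.14; exact permutation p = 0.112) and an adjusted p of 1.00 in limma. Irf7, with medians of 2.91 TPM in WT and 2.50 TPM in Brd1+/- mice, had the most negative value, a log2 fold change of -0.30 (95% confidence interval -0.76 to 0.15). Without Brd1+/- vehicle replicate 6 the values were 0.21 for Ifit3 and -0.31 for Irf7. The median over the 8 genes was -0.08, beside -0.018 over all genes.

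With IMN the genotypes did not separate either. Again 0 of 8 genes passed in limma (0.0% of all genes), and 0 of 8 had an unadjusted p under 0.05, beside 1.97% of genes higher and 1.26% lower. Bst2 came nearest. It was 1.70, 2.70 and 3.96 TPM (lowest, median and highest) in WT IMN and 1.67, 3.53 and 4.97 TPM in Brd1+/- IMN mice, where 8 of 9 libraries lay above the WT mean, a log2 fold change of 0.31 (SE 0.16; exact permutation p = 0.0807; limma adjusted p = 1.00). Oasl2 had a log2 fold change of 0.34 (SE 0.23) in the same comparison, and its values in Brd1+/- IMN mice ran from 1.51 to 5.15 TPM around a median of 2.85. Over both treatments 1 of 8 genes, Ifit3, had an unadjusted p under 0.05, with a log2 fold change of 0.20 (SE 0.09, 95% confidence interval 0.02 to 0.39, p = 0.0341 and adjusted p = 0.999 in limma). That level was reached by 1.69% of genes in the higher direction, and the adjusted threshold by 1 gene, Brd1 (0.00391%).

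IMN was set against vehicle over both genotypes with all 36 libraries. No gene of the 8 passed an adjusted p of 0.05 (0 of 8 in limma, where 0.274% of all genes passed), 3 of 8 were lower at an unadjusted p under 0.05 (5.48% of genes were) and 2 of 8 were lower at the study's nominal level of 0.01 (1.94%). The 3 genes were Usp18, Irf9 and Isg15, and 0 of 8 were higher at either level (3.9% and 1.17% of genes were). The median over the 8 genes was -0.16, beside -0.002 over all genes. Brain punches mix cell types, so fewer cells of a type and less RNA per cell cannot be told apart in any of these values.

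Usp18, the negative regulator, had the most negative value. Its lowest, median and highest levels were 0.170, 0.910 and 1.17 TPM in WT vehicle and 0.0, 0.756 and 1.25 TPM in Brd1+/- vehicle mice. They were 0.0, 0.365 and 0.992 TPM in WT IMN and 0.0, 0.272 and 0.823 TPM in Brd1+/- IMN mice. It was listed at 0 in 1 of the 17 vehicle libraries and in 5 of the 19 IMN libraries, and the groups overlapped. The log2 fold change over both genotypes was -0.56 (SE 0.17, 95% confidence interval -0.91 to -0.21), with a limma p of 0.00243 that was 0.175 after adjustment. At this low level the size depended on the pseudocount, from -1.10 with 0.1 TPM to -0.37 with 1 TPM. Without Brd1+/- vehicle replicate 6 it was -0.55. In WT mice it was -0.52 (SE 0.24; exact permutation p = 0.0644), with 8 of 10 IMN libraries below the vehicle mean, and in Brd1+/- mice -0.60 (SE 0.23; exact permutation p = 0.0304), with 7 of 9 below.

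Irf9 showed the same direction in both genotypes. Its lowest, median and highest levels were 11.4, 14.2 and 20.4 TPM in WT vehicle and 7.37, 11.0 and 18.0 TPM in WT IMN mice. In Brd1+/- mice they were 7.90, 12.3 and 18.1 TPM with vehicle and 7.76, 10.3 and 13.0 TPM with IMN. The ranges overlapped, and 7 of 10 WT IMN and 8 of 9 Brd1+/- IMN libraries lay below the mean of their vehicle group. The log2 fold change was -0.36 (SE 0.16; exact permutation p = 0.0449) in WT and -0.28 (SE 0.14; exact permutation p = 0.0605) in Brd1+/- mice. Over both genotypes it was -0.32 (SE 0.10), or 80.0% of the vehicle level, with p = 0.00381 and adjusted p = 0.214 in limma, and -0.31 without Brd1+/- vehicle replicate 6.

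Isg15, the modifier that Usp18 removes, had medians of 3.06 TPM in WT vehicle, 3.81 TPM in Brd1+/- vehicle, 2.63 TPM in WT IMN and 2.09 TPM in Brd1+/- IMN mice. Within every group its libraries spread widely, from 2.08 to 4.97 TPM in Brd1+/- vehicle and from 1.52 to 4.47 TPM in Brd1+/- IMN mice. The log2 fold change over both genotypes was -0.37 (SE 0.14), with p = 0.0144 and adjusted p = 0.363 in limma. By genotype it was -0.31 (SE 0.20; exact permutation p = 0.148) in WT and -0.43 (SE 0.21; exact permutation p = 0.0654) in Brd1+/- mice.

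Oasl2 had the largest difference in IMN effect between genotypes. Its lowest, median and highest levels were 2.15, 3.08 and 3.84 TPM in WT vehicle and 0.733, 2.07 and 3.75 TPM in WT IMN mice, where 8 of 10 libraries lay below the vehicle mean, a log2 fold change of -0.48 (SE 0.19; exact permutation p = 0.0241; limma adjusted p = 0.694). In Brd1+/- mice it was 1.76, 2.47 and 3.71 TPM with vehicle and 1.51, 2.85 and 5.15 TPM with IMN, a log2 fold change of 0.07 (SE 0.20). The test of the difference, the genotype by imipramine interaction, gave 0.55 (SE 0.28, 95% confidence interval -0.03 to 1.12), with p = 0.0615 and adjusted p = 1.00 in limma. For the interaction 0 of 8 genes had an unadjusted p under 0.05 (2.18% of genes were higher and 1.02% lower at that level) and 0 of 8 passed after adjustment (0.0%).

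The intervals of the remaining 4 genes included 0. Over both genotypes the log2 fold change with IMN was -0.12 (95% confidence interval -0.34 to 0.10) for Ifit1, 0.07 (-0.12 to 0.25) for Ifit3, -0.07 (-0.36 to 0.22) for Irf7 and 0.15 (-0.18 to 0.48) for Bst2. In the comparisons within a genotype, which use the same vehicle mice as the pooled one, 3 of 8 genes were lower at an unadjusted p under 0.05 in WT mice (Oasl2, Irf9 and Usp18; 4.57% of genes were) and 2 of 8 in Brd1+/- mice (Usp18 and Irf9; 2.40%), with 0 of 8 higher in WT (2.03%) or Brd1+/- mice (3.12%). None passed an adjusted p of 0.05 in limma in WT (0.0% of genes passed) or Brd1+/- mice (0.00782%).

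Leaving out Brd1+/- vehicle replicate 6 changed which genes reached an unadjusted p under 0.05 with IMN in Brd1+/- mice. Usp18 was then at -0.58 (limma p = 0.031), Isg15 at -0.49 (p = 0.0328) and Irf9 at -0.25 (p = 0.0913), each with an adjusted p of 0.846 or more. Over both genotypes Isg15 was at -0.39, Oasl2 at -0.22, Ifit1 at -0.13, Ifit3 at 0.08, Irf7 at -0.07 and Bst2 at 0.18. The interaction of Oasl2 was 0.52, and Ifit3 between genotypes over both treatments was at 0.19.

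**Figure D3:**
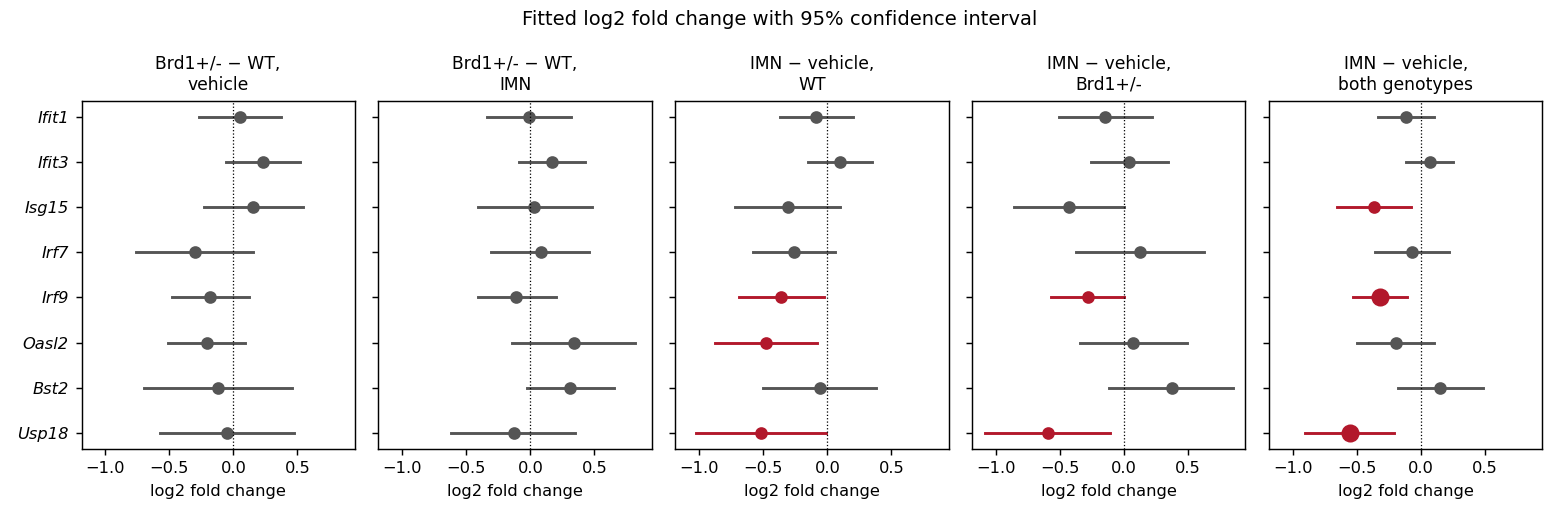
Fitted log2 fold change (x axis) of each gene (y axis) with its 95% confidence interval in 5 comparisons; red marks an unadjusted limma p under 0.05, and the larger points a p under 0.01. Usp18 and Irf9 lie left of 0 in the 3 comparisons of IMN with vehicle, and no interval of the 2 genotype comparisons excludes 0.

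Other genes of the pathway did not pass either. Of 5 tested receptor genes 1, Ifnar1, was lower with IMN over both genotypes at an unadjusted p under 0.05 (log2 fold change -0.09, SE 0.04, limma adjusted p = 0.497). Among 33 tested genes of the comparison list of 36 other interferon-stimulated genes, 0 passed an adjusted p of 0.05 in that comparison in limma, 2 were lower at an unadjusted p under 0.05 and 0 were higher, with a median log2 fold change of 0.00. Of 15 tested GTPases and chemokines that interferon gamma induces, 2 were lower and 0 higher, and of 14 genes of class I antigen presentation 0 were lower or higher. Over all genes 5.48% were lower and 3.9% higher at an unadjusted p under 0.05 in that comparison. Among the transducers and sensors, 13 tested in each list, 1 gene each was lower at the nominal level of 0.01 with IMN over both genotypes (1.94% of genes were). Irf8, a transcription factor of microglia and other myeloid cells, had a log2 fold change of -0.33 (SE 0.10; limma adjusted p = 0.172). Ikbke, a kinase that activates Irf3 and Irf7, had one of -0.46 (SE 0.15; limma adjusted p = 0.209). Neither passed.

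Markers of cell types were read beside these genes. With IMN over both genotypes 1 of 12 microglia markers was lower at an unadjusted p under 0.05 (5.48% of genes were), with a median log2 fold change of -0.05 over the list. Of 10 endothelial markers 1 was higher (3.9% of genes were), Slco1a4, a transporter of the blood-brain barrier, at 0.38 (SE 0.13, limma adjusted p = 0.264), with a list median of 0.04. The list median was -0.01 for astrocytes and -0.02 for neurons. Of 10 oligodendrocyte markers 0 reached an unadjusted p under 0.05, but their median was 0.41, with 0.61 in WT and 0.16 in Brd1+/- mice. The mean of that list varied widely within groups (SD from 0.86 to 1.32), and its part was not tested. Of 10 striatal markers 1, Tac1, was higher at an unadjusted p under 0.05 with IMN in WT mice (2.03% of genes were), at 0.81 (SE 0.23, limma adjusted p = 0.486), with a list median of 0.11. The interaction of Tac1 was -1.13 (SE 0.49, limma adjusted p = 1.00), and the list median was -0.45 with IMN in Brd1+/- mice and -0.16 over both genotypes. Brd1+/- vehicle replicate 6, with its striatal mean of 6.78, enters this interaction and these medians. They were not computed without it, so they cannot be read as an effect of IMN. Of 8 tested blood and lymphoid markers 1, Cd79a, a B cell marker, was lower at an unadjusted p under 0.05 in Brd1+/- mice over both treatments, at -0.33 (SE 0.11, limma adjusted p = 0.999), while the list median was 0.06. That level was reached by 1.94% of genes in the lower direction. Cd79a lay near the floor, with a median of 0.177 TPM and values above 0 in 22 of 36 libraries. Of the 12 immediate-early genes 8 were lower at the nominal level with IMN over both genotypes (1.94% of genes were). After adjustment 3 passed (0.274% of genes did), Npas4 (log2 fold change -0.94, limma adjusted p = 0.00318), Egr1 (-0.66, 0.00939) and Arc (-0.67, 0.0108). With the microglia list as a covariate, or the endothelial one, the IMN values of Usp18, Irf9 and Isg15 over both genotypes stayed below 0. Both lists had a median near 0 with IMN, so a kept sign cannot tell what part cell composition has in these values. The part of the other lists was not tested.

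Co-variation between libraries was read after subtracting the mean of each group, so that it holds what differs between mice of the same group. Across the 28 pairs of the 8 genes, Pearson's r of log2(TPM + 0.5) over 36 libraries was above 0 in 27 and above 0.4 in 8, with a median of 0.29 and a range from -0.09 to 0.62. Values of a pair come from the same library and so share its total and its cell composition. For scale, between 44.5% (Ifit3) and 57.1% (Irf9) of all 25571 other genes had an r above 0 with a given member, with medians of -0.036 and 0.04.

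Ifit3 had the highest median r with the other 7 genes. This median was 0.45, against 0.37 for Isg15, 0.32 for Oasl2, 0.29 for Bst2 and 0.28 for Irf7, and it was 0.26 for Ifit1, 0.17 for Usp18 and 0.16 for Irf9. Of 25571 genes ranked by their r with Ifit3, Oasl2 was number 81, Bst2 105 and Irf9 7518. Ifit3 and Oasl2 had r = 0.62 and Spearman's rho = 0.58 (permutation p = 6e-05 and 0.00038). The fit over all genes gave this pair adjusted p-values of 0.0152 and 0.0161 in limma, and it was the 1 pair of the 28 to pass from both sides. The r was 0.90 in WT vehicle, 0.48 in Brd1+/- vehicle, 0.72 in WT IMN and 0.63 in Brd1+/- IMN libraries. Without the 2 libraries farthest from the median of Ifit3 it was 0.55, and without Brd1+/- vehicle replicate 6 it was 0.64.

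Ifit3 and Bst2 had r = 0.61 and rho = 0.58 (permutation p = 0.00021 and 0.00058), with an adjusted p of 0.0167 in limma when genes were ranked on Ifit3 and 0.0802 when ranked on Bst2. All 4 groups had an r above 0, from 0.28 in WT IMN to 0.79 in Brd1+/- vehicle libraries, and r was 0.60 without the 2 libraries farthest from the median of Ifit3 and 0.60 without Brd1+/- vehicle replicate 6. The next pairs did not pass over all genes. They were Isg15 with Irf9 at r = 0.48 (rho = 0.46, permutation p = 0.00672 and 0.00966), Ifit1 with Irf7 at r = 0.46 (rho = 0.41, permutation p = 0.0101 and 0.0255), Ifit3 with Isg15 at r = 0.46 (rho = 0.43, permutation p = 0.00772 and 0.0124) and Ifit1 with Ifit3 at r = 0.45 (rho = 0.38, permutation p = 0.00957 and 0.0284). Without the 2 farthest libraries of the first gene these were 0.41, 0.42, 0.35 and 0.32, and without Brd1+/- vehicle replicate 6 they were 0.53, 0.46, 0.49 and 0.47. By group, Isg15 with Irf9 ran from 0.07 (Brd1+/- vehicle) to 0.90 (WT IMN). Ifit1 with Irf7 ran from -0.17 (WT vehicle) to 0.65 (Brd1+/- vehicle). Ifit3 with Isg15 ran from 0.16 (WT vehicle) to 0.61 (Brd1+/- vehicle), and Ifit1 with Ifit3 from 0.09 (Brd1+/- IMN) to 0.81 (Brd1+/- vehicle). In the count of genes that passed for a given member, 1.72% of genes were positive calls with Ifit3, which included 2 of the other 7, and 1.27% with Oasl2, which included 1. For Isg15 (0.297%) and Usp18 (0.00391%) the calls included 0 of the other 7, and for Ifit1, Irf7, Irf9 and Bst2 no gene passed (0.0%). Negative calls were as frequent, with 441 positive and 581 negative for Ifit3 and 324 and 332 for Oasl2, but 76 and 42 for Isg15.

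Usp18 and Irf9, the genes with the smallest p-values in the IMN comparison, had the lowest median r with the others. Usp18 had r between -0.09 with Bst2 and 0.31 with Irf9. Irf9 had r = 0.07 with Irf7, 0.11 with Ifit3 and 0.12 with Ifit1. Leaving Usp18 out raised the median to 0.32 over 21 pairs.

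**Figure D4:**
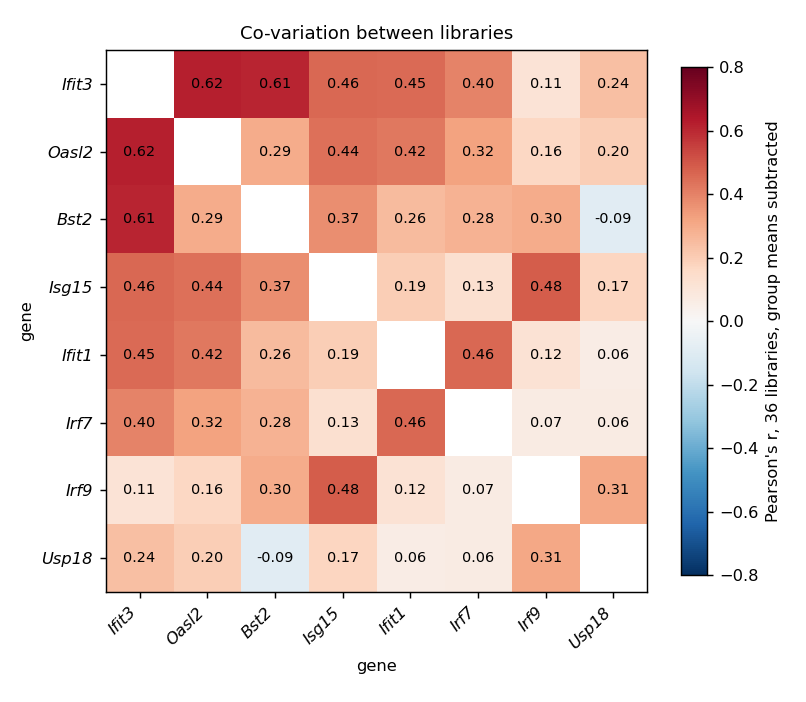
Pearson's r (color and printed value) for each pair of the 8 genes over 36 libraries after subtracting group means. The block of Ifit3 with Oasl2 and Bst2 holds the highest values, 0.62 and 0.61, and the rows of Irf9 and Usp18 hold the lowest.

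Single libraries stood out in several genes at once. Each gene was standardised after subtracting group means, and the 8 values of a library were averaged. Brd1+/- vehicle replicate 7 had the highest mean, 1.5 SD, with 8 of 8 genes above the group mean; it held the highest level of its group for Ifit1 (2.81 TPM), Ifit3 (8.80 TPM), Irf7 (4.60 TPM) and Bst2 (4.51 TPM). WT IMN replicate 3 followed at 0.99 SD, with 8 of 8 above, and Brd1+/- IMN replicate 9 at 0.95 SD, with 7 of 8 above and the highest levels of Ifit3 (9.02 TPM) and Oasl2 (5.15 TPM) among all libraries. At the other end, WT vehicle replicate 1 (-1.08 SD) and WT IMN replicate 2 (-0.98 SD) had 0 of 8 genes above the group mean, and Brd1+/- vehicle replicate 9 (-1.08 SD) had 1. Because group means were subtracted, each of the 4 groups must hold libraries above and below 0. The order of libraries therefore says nothing about differences between groups. Without the 2 libraries farthest from the median, Brd1+/- vehicle replicates 7 and 9, the median r over the pairs was 0.24, and without Brd1+/- vehicle replicate 6 it was 0.28.

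**Figure D5:**
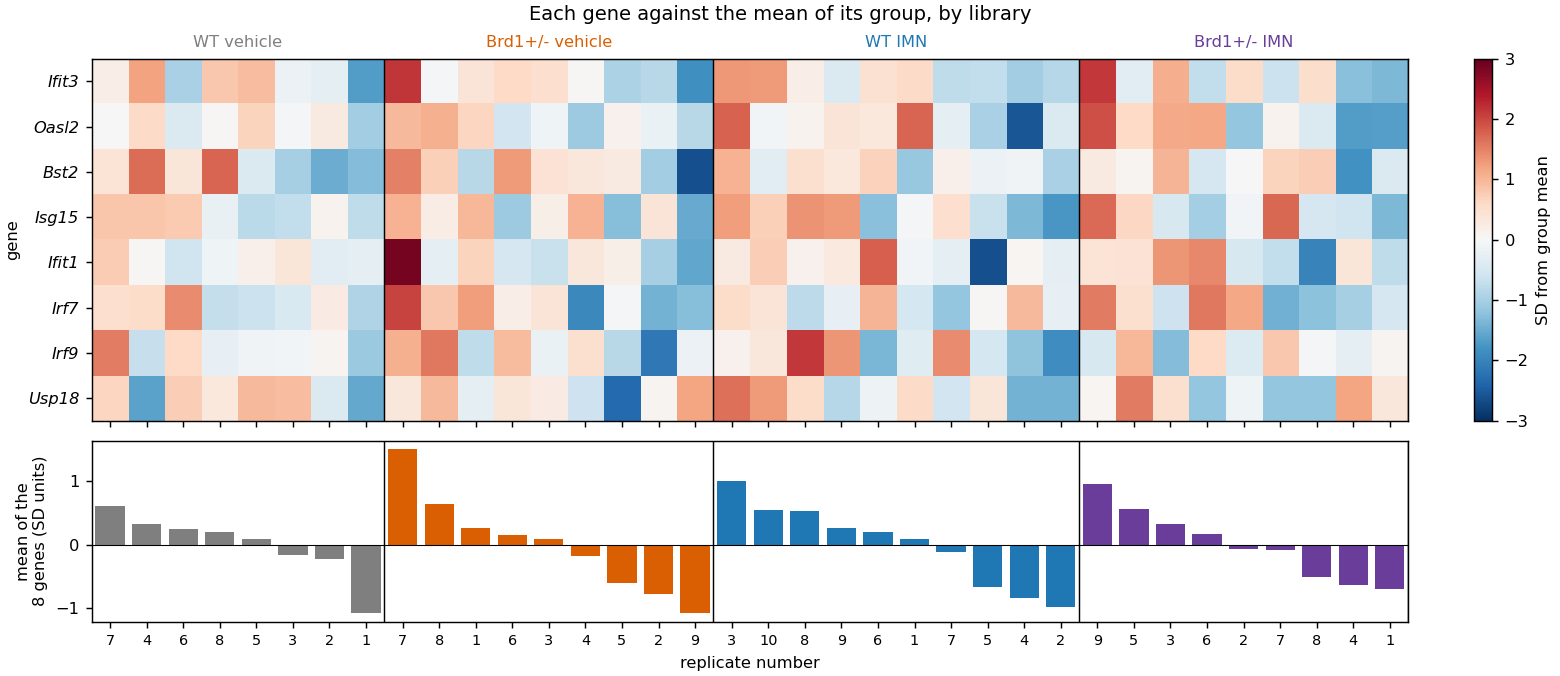
Upper panel, each gene (rows) in each library (columns) as SD from its group mean; lower panel, the mean of the 8 genes per library in SD units, with libraries sorted within each group. Brd1+/- vehicle replicate 7 is high in all 8 genes, and WT vehicle replicate 1 and WT IMN replicate 2 are low in all 8.

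The genes most like each member, among those with a median of at least 1 TPM, differed by member. Ifit3 was nearest to its copy Ifit3b (r = 0.85) and to Ifitm3 (r = 0.81), a membrane protein that blocks virus entry, both with an adjusted p of 5.67e-05 in limma over all genes, and then to the growth factor Mdk (r = 0.76, adjusted p = 0.000783). Reads could be split between Ifit3 and Ifit3b, and what this does to their r was not tested. Isg15 was nearest to C1qc (r = 0.70), S100a13 (0.70) and C1qb (0.67), each with an adjusted p of 0.0304 in limma; C1qb and C1qc encode complement chains made by microglia. Oasl2 was nearest to Fcgrt (r = 0.74), the neonatal Fc receptor, Grrp1 (0.72) and Vstm4 (0.72), each with an adjusted p of 0.00366 in limma. The nearest genes of Ifit1 (Egln2, Gm36189 and Pxmp2, r from 0.61 to 0.67), Irf7 (Ushbp1, Zfand2b and Gm16020, 0.65 to 0.70), Irf9 (Dpm3, Polrmt and Snhg12, 0.64 to 0.69), Bst2 (Mgat4b, Gm11361 and Gm6133, 0.68 to 0.69) and Usp18 (Txlna, Gm37509 and Flvcr2, 0.54 to 0.61) did not pass over all genes. To the mean of the 8 genes the 10 nearest were Hspb1 (r = 0.81), Ifitm3 (0.80), Id1 (0.79), Dpm3, Clec2d, H2-Q4 and Klf2 (0.77 each), Tgm2 and Fcgrt (0.76 each) and Gm12854 (0.75). Of these, Ifitm3 and H2-Q4, a class I gene, are known as interferon-induced.

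Cell-type lists moved with the mean of the 8 genes between libraries. Of all 25564 other genes, 48.3% had an r above 0 with that mean. Pearson's r with that mean was 0.67 for the list of mural cells and fibroblasts (10 genes, 10 of 10 with an r above 0 on their own). For astrocytes it was 0.58 (8 genes, 6 of 8 above 0, from -0.29 for S100b to 0.59 for Gfap). For endothelium it was 0.56 (10 genes, 10 of 10 above 0). It was 0.46 for blood and lymphoid cells (8 genes, 8 of 8 above 0) and 0.38 for microglia (12 genes, 10 of 12 above 0). It was -0.49 for neurons (10 genes), -0.14 for oligodendrocytes and -0.08 for striatum. By gene, the microglia list had r = 0.59 with Isg15 and -0.09 with both Ifit1 and Irf7, while the endothelial list had r = 0.66 with Oasl2 and 0.12 with Irf9. Ifit3 and Oasl2 had r = 0.61 with the microglia list as a covariate, 0.46 with the endothelial list, and 0.38 and 0.37 with the mural and astrocyte lists, 2 covariates chosen after seeing the data. Ifit3 and Bst2 had 0.54, 0.59, 0.51 and 0.54 in the same order. The median r over the 28 pairs was 0.27, 0.21, 0.16 and 0.20 with these covariates. Which of these lists the values follow was not tested.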

How the data were processed

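RNA from aCC punches of 36 mice, 1 library each, was sequenced by the authors as single-end reads on BGISEQ-500. Per the labels and the study's methods, reads were checked with FastQC and Trimmomatic, aligned to GRCm38 with HISAT2 2.1.0 and quantified with StringTie 1.3.4. The deposited values are TPM, computed by the authors per gene and library, which keep no record of depth, so the error of a value is the spread between mice and no counting interval is given. The labels name no batch. Column totals ran from 999727.1 to 999889.0, and 0 columns were left unmatched.

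TPM were taken as log2(TPM + 0.5), the scale of every fold change, which understates changes of low genes. All 25572 genes at or above 0.1 TPM in 8 or more libraries were fitted in limma 3.58.1 (R 4.3.3; empirical Bayes with trend, two-sided, Benjamini-Hochberg over all genes tested). Each comparison of 2 groups used its own libraries, and pooled and interaction fits used all 36. Exact permutation tests (all arrangements) and permutation tests (100000 draws within groups) were two-sided and unadjusted, with scipy 1.17.1 and numpy 2.4.6 in Python 3.11.15 (tables in pandas 2.3.3, plots in matplotlib 3.10.9). Simulated data with known changes were used to test the limma fits. Replicates are separate mice.

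The 8 genes, the gene lists and the rule for named genes were chosen with earlier results of these data known. Named were the 8 genes, list genes with an unadjusted p under 0.01, receptors, transducers and ligands, and the genes most correlated with the 8 (median of at least 1 TPM). Alternatives were pseudocounts of 0.1 and 1, no filter on low values, a filter at a mean of 1 TPM, quantile normalization, median-ratio scaling, microglia and endothelium covariates, array weights, 1 fit of all libraries, a replicate block and leaving out each library. Replicate numbers were not taken to pair mice across groups. The paper describes litter-matched mice, but the labels used here name no litter, so litter could not enter the fits.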

Additional observations from a re-analysis of the deposited data

Results flagged for a closer look

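Among 32 sets of values, 8 genes in 4 groups, 2 held a library set far apart from the rest of its group by Dixon's test at the 95% level, and chance gives about 1 in 20. Both were in Ifit1. Brd1+/- vehicle replicate 7 lay far above its group at 2.81 TPM, and without it the log2 fold change of Ifit1 between Brd1+/- and WT vehicle mice was -0.06 in place of 0.05. WT IMN replicate 5 lay far below its group at 0.413 TPM, and without it the log2 fold change of Ifit1 between WT IMN and WT vehicle mice was 0.01 in place of -0.09.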

How the results depend on the processing

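Under every alternative and with each library left out in turn, 0 of the 8 genes passed an adjusted p of 0.05 in any of the 7 comparisons (0 of all values computed for 56 gene and comparison results). The nearest was Usp18 with IMN over both genotypes, whose adjusted p ran from 0.0727 to 0.271 with 1 library left out and from 0.0878 to 0.247 under the other alternatives; with a mean of at least 1 TPM as the filter Usp18 was not tested. Of 585 values under the alternatives 13 changed sign, all near 0, and the cause was not tested. With array weights these were Ifit1 in vehicle mice (0.00), Irf7 between genotypes under IMN (0.00), the interaction of Ifit3 (0.02) and Usp18 (0.04) and Ifit1 between genotypes over both treatments (-0.04). With the endothelium covariate they were Isg15 between genotypes under IMN (-0.04) and, for IMN in Brd1+/- mice, Ifit3 (-0.04), Irf7 (-0.03) and Oasl2 (-0.12). With the microglia covariate it was Bst2 for IMN in WT mice (0.01). With the replicate block they were Bst2 in vehicle mice (0.04), Ifit1 between genotypes under IMN (0.01) and the interaction of Usp18 (0.00), and the block changed no call. Same-numbered mice did not deviate together (r over genes from -0.26 to 0.26 over 51 pairs, 4 of them above 0.1), so numbers were read as names only. The check and the replicate block cover equal numbers only, so they cannot show libraries handled together under different numbers.

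With 1 library left out, 39 of 1440 values changed sign. The ranges were, between genotypes in vehicle mice, -0.06 to 0.11 for Ifit1, -0.22 to 0.04 for Bst2 and -0.17 to 0.10 for Usp18. Under IMN they were -0.10 to 0.07 for Ifit1, -0.06 to 0.10 for Isg15 and -0.01 to 0.15 for Irf7, and over both treatments -0.04 to 0.06 for Ifit1. For IMN in Brd1+/- mice they were -0.03 to 0.11 for Ifit3 and -0.03 to 0.16 for Oasl2, and in WT mice -0.15 to 0.01 for Ifit1 and -0.16 to 0.06 for Bst2. For the interaction they were -0.15 to 0.05 for Ifit1, -0.13 to 0.01 for Ifit3, -0.01 to 0.15 for Irf9 and -0.23 to 0.04 for Usp18. The median r over the pairs was 0.25 to 0.31 with 1 library left out. By group alone it was 0.18 in WT vehicle, 0.39 in Brd1+/- vehicle, 0.29 in WT IMN and 0.06 in Brd1+/- IMN libraries, a difference that was not tested and rests on 8 to 10 libraries each. With the replicate block it was 0.29.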

Other observations

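Genes of neighboring pathways mostly had a positive r with the 8 genes between libraries. Of 15 GTPases and chemokines that interferon gamma induces, 15 had an r above 0 with the mean of the 8 genes after subtracting group means (36 libraries), with a median of 0.44 and a range from 0.04 to 0.63. Of all 25564 other genes, 48.3% had an r above 0 with that mean, and the median was -0.011. Gbp2, a guanylate-binding GTPase that attacks intracellular pathogens, was the highest at 0.63, and Irgm2 followed at 0.62. The mean of that list had r = 0.82 with Oasl2 and 0.10 with both Irf9 and Usp18. Of 14 genes of class I antigen presentation 13 had an r above 0, with a median of 0.47. H2-K1, a class I heavy chain, was at 0.74, B2m, the light chain, at 0.69 and Tap1, a peptide transporter subunit, at 0.61.

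Of 33 other interferon-stimulated genes 24 had an r above 0, from -0.54 to 0.80, with a median of 0.35. Ifitm3 (0.80), Ifi35 (0.73) and Oas2 (0.63) were the highest, and Cmpk2 (-0.54), Eif2ak2 (-0.33) and Ifit1bl1 (-0.27) the lowest. A positive r was not particular to such genes, since 10 of 10 endothelial markers and 10 of 10 mural and fibroblast markers had one. Neuronal markers went the other way, with 1 of 10 above 0 and a median of -0.26. These are descriptions of 36 libraries in which genes share the library total and the cell composition of the punch.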
